A study of Homo sapiens with 26 samples.

Results

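The 67 genomic regions described here are sites of glucocorticoid receptor (GR) binding near genes for collagens, laminins and integrins. They were taken from a table of 10740 GR regions, each 400 bp wide, in A549 cells, an established human lung carcinoma epithelial line. A region belongs to the set when the protein-coding gene start nearest to its midpoint (GENCODE release 44, build hg38) lies within 100 kb and belongs to a gene whose symbol is COL followed by a digit or begins with LAMA, LAMB, LAMC, ITGA or ITGB. The choice used names and positions and no binding value. The 67 regions lay at 36 of the 86 protein-coding genes with such symbols: 12 at 12 collagen genes, 15 at 8 laminin genes, 12 at 8 integrin alpha genes, 25 at 6 integrin beta genes, and 3 at ITGB3BP and ITGBL1, which carry the ITGB prefix but are not integrin subunits.

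The study asked how blocking NF-κB bears on where GR binds when a glucocorticoid and an inflammatory cytokine are given together. Cells carried a control adenovirus, Ad-GFP, which encodes green fluorescent protein, or Ad-IκBαΔN, which encodes a form of the NF-κB inhibitor IκBα that resists degradation. Cells of each virus were unstimulated (NS), treated with 300 nM budesonide, an inhaled glucocorticoid, or treated with 1 ng/ml IL1B plus 300 nM budesonide, for 1 h. All cells carried a virus, GR after IL1B alone was not analysed here, and GR was recovered by chromatin immunoprecipitation and sequencing from 2 independent experiments in each of the 6 groups, 12 GR libraries in all. The table names the inhibitor groups Ad-IκBα, which was read as the Ad-IκBαΔN of the sample labels.

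The deposited table gives 1 value per region and group, written as log2(signal + 1), so differences between groups have no replicate spread and no test. A region is counted as higher or lower when its difference on this scale is at least 1, which is 2-fold in signal + 1. All fold sizes given here are of signal + 1. The shares of all 10740 regions that pass the same threshold are given beside the counts. The sequencing depth behind the values is unknown. The library scales may differ between groups: the median of all regions was 3.10, 4.51 and 5.55 in Ad-GFP cells (untreated, budesonide, IL1B plus budesonide) and 3.14, 4.50 and 4.62 in Ad-IκBαΔN cells. The order of a region relative to all regions rests less on these scales than its absolute change.

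Collagens and laminins build the extracellular matrix. Laminins are trimers of an alpha, a beta and a gamma chain that form the basement membrane under epithelia together with type IV collagen, and fibrillar collagens lie beneath it. Integrins are pairs of an alpha and a beta subunit that bind these matrix proteins from the cell surface and link them to the cytoskeleton. GR is a hormone-activated transcription factor that binds DNA directly at the glucocorticoid response element (GRE), and it can also be found at regions occupied by NF-κB, which binds κB motifs, or by AP-1.

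Central windows of 150 bp from 9 regions show what the sequences under the strongest and weakest responses look like. They were chosen after the values were seen, for the size of a response, for a motif or, for COL5A1 and ITGB1 +52.4 kb, for a large response without one. Each is the plus strand of hg38, 5′ to 3′. A region is named by its gene and by its distance from the gene start, with minus for upstream. Capitals mark matches on either strand to the GRE (AGAACA and TGTTCT spaced by 3 bases, with up to 2 mismatches in the 12 fixed bases), to the κB motif or to the AP-1 motif (TGACTCA).
The first 4 windows are from regions much stronger with IL1B plus budesonide than with budesonide, and their capitals are κB or AP-1 matches:
ITGB6 -9.4 kb, chr2:160209677-160209826: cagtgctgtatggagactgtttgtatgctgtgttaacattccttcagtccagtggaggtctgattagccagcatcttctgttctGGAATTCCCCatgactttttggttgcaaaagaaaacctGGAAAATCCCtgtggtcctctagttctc
ITGB6 -33.0 kb, chr2:160233200-160233349: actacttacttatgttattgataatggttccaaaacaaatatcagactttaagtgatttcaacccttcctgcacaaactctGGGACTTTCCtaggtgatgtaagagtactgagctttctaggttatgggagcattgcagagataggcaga
ITGAM +5.6 kb, chr16:31265478-31265627: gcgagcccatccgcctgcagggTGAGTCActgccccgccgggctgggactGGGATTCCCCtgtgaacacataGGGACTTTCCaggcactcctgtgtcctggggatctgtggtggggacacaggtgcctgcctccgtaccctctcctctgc
COL15A1 +50.6 kb, chr9:98993680-98993829: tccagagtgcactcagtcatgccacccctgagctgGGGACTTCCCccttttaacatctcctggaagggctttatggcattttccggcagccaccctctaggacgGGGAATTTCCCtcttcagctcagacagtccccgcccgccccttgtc
The next 3 are from regions stronger with budesonide alone than without drug, and their capitals are GRE matches:
LAMB1 +31.0 kb, chr7:107972133-107972282: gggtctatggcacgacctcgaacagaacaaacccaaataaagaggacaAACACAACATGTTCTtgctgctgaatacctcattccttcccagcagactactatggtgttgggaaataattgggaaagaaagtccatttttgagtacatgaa
LAMA3 +36.6 kb, chr18:23725938-23726087: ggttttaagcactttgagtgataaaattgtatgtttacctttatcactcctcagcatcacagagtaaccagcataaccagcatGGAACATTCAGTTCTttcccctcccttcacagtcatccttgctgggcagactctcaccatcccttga
ITGB8 +10.4 kb, chr7:20340993-20341142: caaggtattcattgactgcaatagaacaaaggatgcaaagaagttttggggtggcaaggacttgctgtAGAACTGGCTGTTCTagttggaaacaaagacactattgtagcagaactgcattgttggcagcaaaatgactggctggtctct
The last 2 had no match to any of the 3 motifs anywhere in their 400 bp, one stronger with budesonide alone and one stronger with IL1B added:
ITGB1 +52.4 kb, chr10:32953318-32953467: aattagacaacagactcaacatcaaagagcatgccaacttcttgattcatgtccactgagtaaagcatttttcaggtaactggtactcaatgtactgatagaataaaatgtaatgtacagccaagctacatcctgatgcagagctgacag
COL5A1 +92.5 kb, chr9:134734241-134734390: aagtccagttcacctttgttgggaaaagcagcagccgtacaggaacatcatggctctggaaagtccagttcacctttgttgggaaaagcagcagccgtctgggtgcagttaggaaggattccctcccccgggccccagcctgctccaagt

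Most of the 67 regions had little GR signal without drug. Without drug their median level was 3.13 with Ad-GFP and 3.12 with Ad-IκBαΔN, and the individual levels in Ad-GFP cells ran from 1.35 to 4.11. With budesonide their median was 3.86 with Ad-GFP and 4.14 with Ad-IκBαΔN, below the medians of all regions. With IL1B plus budesonide it was 5.67 in Ad-GFP cells, just above all regions, and 4.40 in Ad-IκBαΔN cells, below all regions. Ad-GFP cells with IL1B plus budesonide had the highest of the 6 values at 48 of the 67 regions (71.6%, against 63.9% of all regions).

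**Figure D1:**
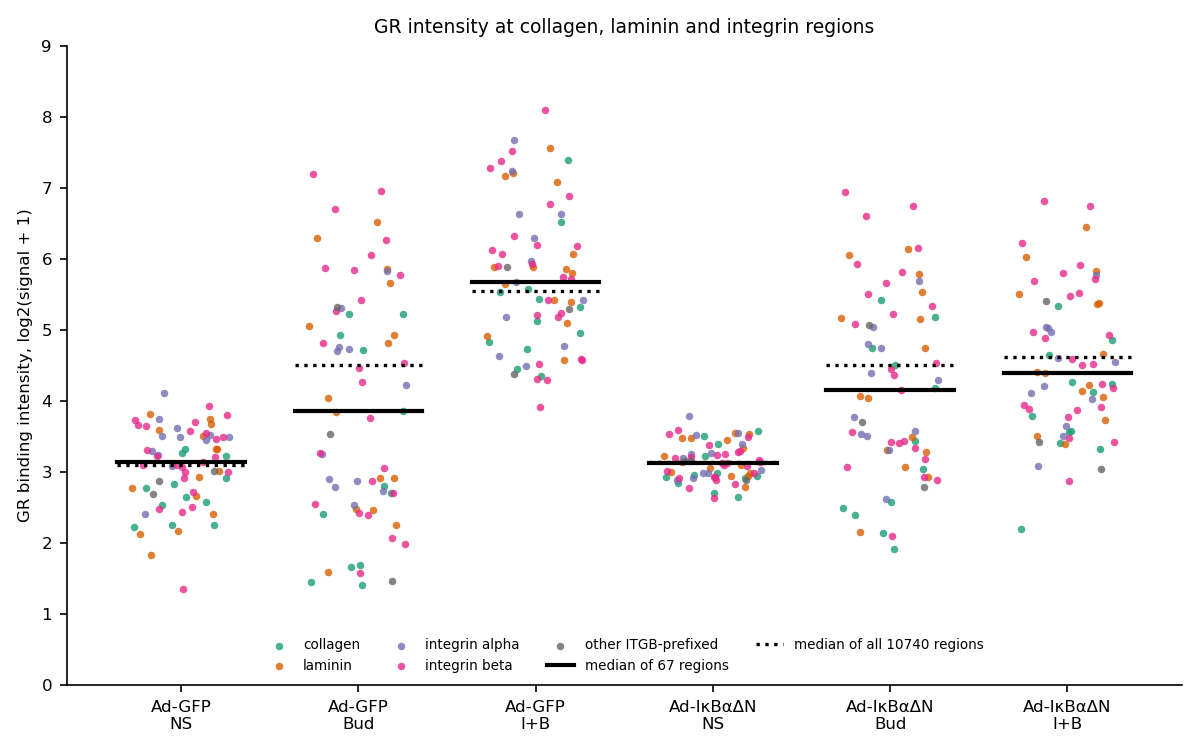
GR binding intensity on the log2(signal + 1) scale (y axis) of the 67 regions in each of the 6 groups (x axis), with 1 point per region coloured by gene family. The solid bars are the medians of the 67 regions and the dotted bars those of all 10740 regions; with budesonide alone the solid bar lies below the dotted one, at 3.86 against 4.51 in Ad-GFP cells.

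Budesonide alone gave a split response. In Ad-GFP cells 30 of the 67 regions were at least 2-fold higher than in untreated cells and 9 were at least 2-fold lower, against 57.9% and 8.14% of all regions. The median difference was 0.83, against 1.37 over all regions, and it was -0.57 when groups were set to a common median over all regions and -0.16 after quantile normalization, where the splits were 13 higher and 30 lower, and 9 and 23. Of all regions, 24.3% and 32.6% passed 2-fold in these directions on the common median and 22.0% and 22.5% after quantile normalization. In Ad-IκBαΔN cells 33 regions were higher and 3 lower, against 59.3% and 1.06% of all regions, with a median of 0.92. The median of all regions in that comparison was 1.37 as well, and the set's median was -0.44 and -0.33 under the same scalings, with splits of 10 and 27, and 11 and 17. The shares of all regions were then 18.9% and 27.2%, and 21.5% and 21.8%. These scalings moved the median of all regions in Ad-GFP cells to -0.03 and 0.00, so they count a region as higher only where it outran the rest of the table. The 30 regions (44.8%) that passed 2-fold in Ad-GFP cells also did so in Ad-IκBαΔN cells, where 53.8% of all regions passed in both viruses.

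Adding IL1B to budesonide gave larger differences at more of the set. In Ad-GFP cells IL1B plus budesonide stood at least 2-fold above budesonide at 40 regions and below it at 4, against 48.9% and 6.07% of all regions. The median difference was 2.19, against 0.92 over all regions. The split depends on the scale between groups. With groups set to a common median over all regions it was 34 higher and 18 lower, and after quantile normalization 29 and 18. It was 31 and 24 with each group divided by the smallest step its values fall on, called the step scale here. The matching shares of all regions were 37.0% and 32.1%, 25.5% and 26.9%, and 30.3% and 43.7%. The steps were 3 and 1.5 for IL1B plus budesonide in Ad-GFP and Ad-IκBαΔN cells. They were 1 for both budesonide groups and untreated Ad-GFP cells. Untreated Ad-IκBαΔN cells had no such step and were left undivided. Counting only regions past 2-fold in every scaling left 29 higher and 4 lower, against 24.2% and 6.07% of all regions. The other scalings lowered the median of all regions from 0.92 to -0.12, -0.13 and -0.61. The lower count therefore equals the deposited 4, and only the increases were tested by these scalings. In Ad-IκBαΔN cells IL1B plus budesonide stood 2-fold above budesonide at 9 regions and below it at 0, against 9.65% and 0.940% of all regions. The median there was 0.26 in the set and 0.26 over all regions, and the set's median was -0.26 on the step scale, where 1 region was higher and 4 lower (0.875% and 10.0% of all regions). It was 6 and 1 on a common median (5.81% and 1.65%), and 2 and 3 after quantile normalization (0.885% and 1.15%).

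Set directly against each other with IL1B plus budesonide, Ad-IκBαΔN cells had at least 2-fold less GR signal than Ad-GFP cells at 38 regions and at least 2-fold more at 5, against 46.5% and 5.97% of all regions. The median difference was -1.43, against -0.85 over all regions, and the split was 27 lower and 15 higher on a common median, 28 and 14 after quantile normalization and 27 and 15 on the step scale. The shares of all regions lower and higher were 24.4% and 25.4%, 24.3% and 24.5%, and 22.4% and 25.7%. In every scaling 27 regions were lower and 5 higher, against 21.8% and 5.97% of all regions. The other scalings raised the median of all regions from -0.85 to 0.08, 0.08 and 0.12. The higher count therefore equals the deposited 5, and only the lower one was tested by these scalings. With budesonide alone the signal was 2-fold higher in Ad-IκBαΔN cells at 3 regions and lower at 0, against 4.02% and 0.0186% of all regions. In untreated cells 3 were higher and 0 lower, against 7.21% and 2.77%, and after quantile normalization 11 were higher and 13 lower, against 19.3% and 19.7%. The comparisons of IL1B plus budesonide share the Ad-GFP group, so a region high in that group appears in more than 1 of these counts.

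The Ad-GFP responses were sorted by the 2 steps, on the deposited scale. At 36 regions (53.7%, against 38.8% of all regions) budesonide alone did not reach a 2-fold increase and IL1B plus budesonide was at least 2-fold above it. At 22 regions (32.8%, against 41.7%) budesonide alone was at least 2-fold above untreated cells and the level with IL1B was within 2-fold of that. A 2-fold increase at both steps was seen at 4 regions (5.97%, against 10.1%), an increase with budesonide followed by a 2-fold decrease with IL1B at 4 (5.97%, against 6.01%), and neither increase at 1 (1.49%, against 3.36%). A region at least 2-fold higher with budesonide and not a further 2-fold higher with IL1B is called a budesonide region here, on the deposited scale. Against untreated cells, IL1B plus budesonide was at least 2-fold higher at 64 regions and lower at 0 in Ad-GFP cells, where the shares of all regions were 93.7% and 0%. In Ad-IκBαΔN cells it was 2-fold higher at 37 and lower at 0, where the shares of all regions were 69.1% and 0.0466%. These counts rest on the scale between groups. In Ad-GFP cells they became 18 and 6 on a common median (19.3% and 14.5% of all regions), 13 and 8 after quantile normalization (19.9% and 19.9%), and 33 and 0 on the step scale (48.7% and 1.31%). In Ad-IκBαΔN cells they became 10 and 14 (16.7% and 13.2%), 10 and 22 (20.7% and 21.2%), and 26 and 1 (46.9% and 0.372%).

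**Figure D2:**
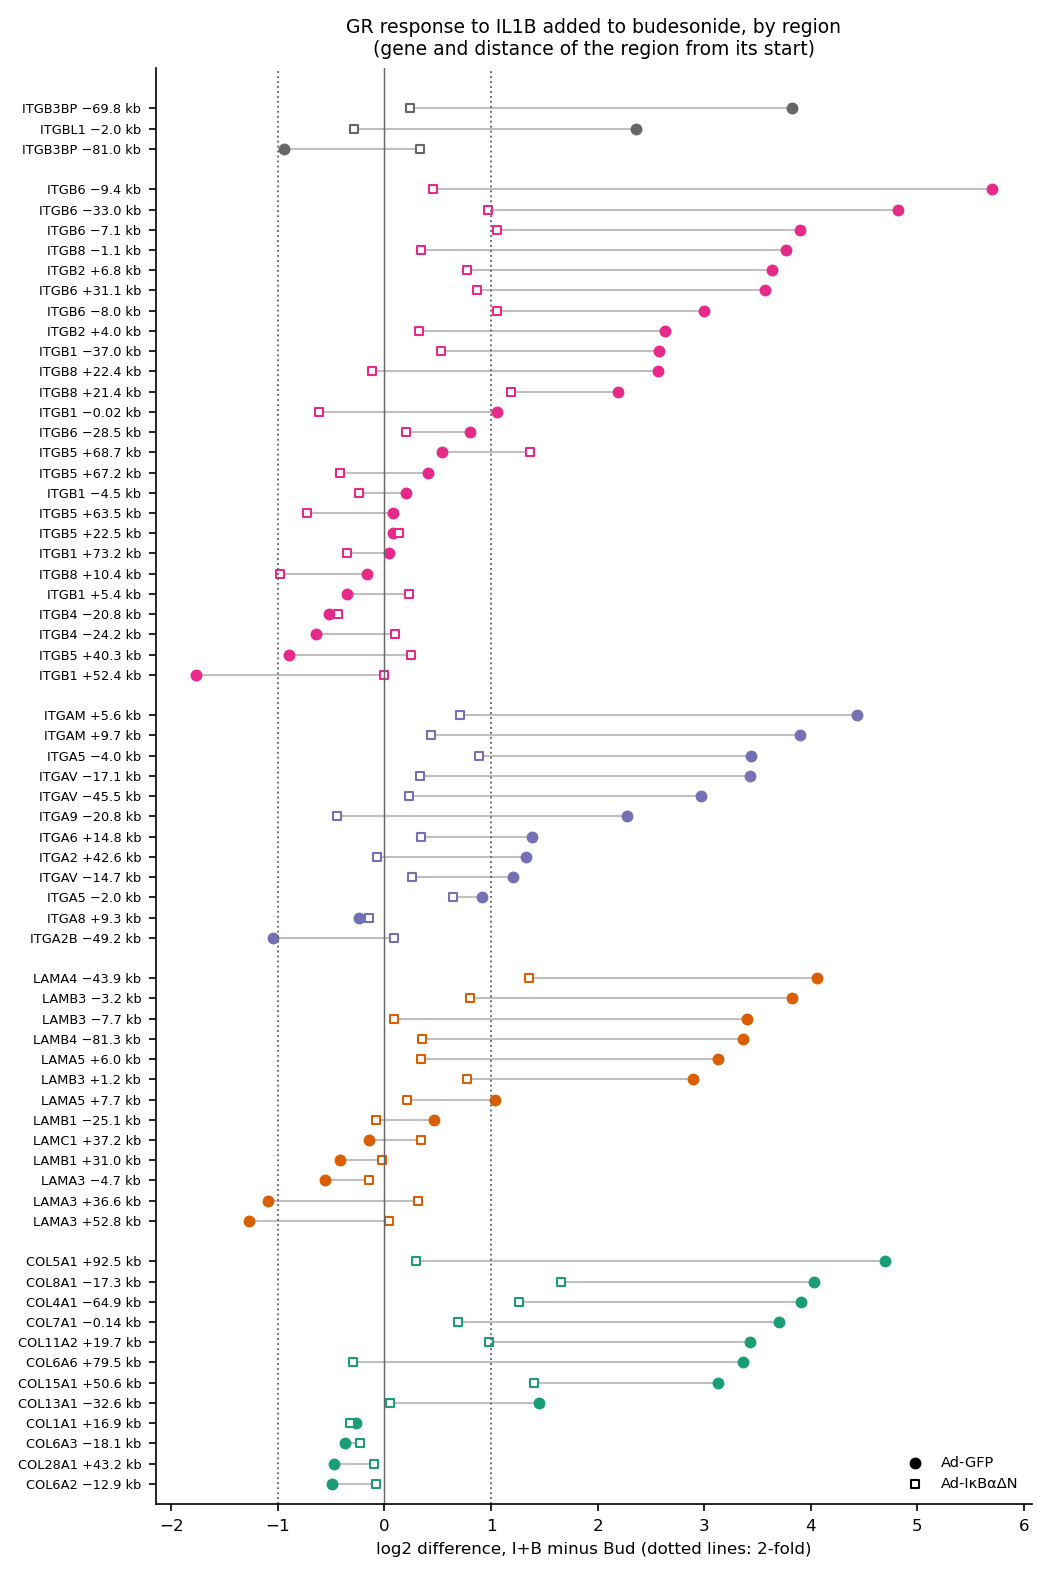
Log2 difference between IL1B plus budesonide and budesonide (x axis) at each of 65 regions (y axis, by family), with filled circles for Ad-GFP and open squares for Ad-IκBαΔN cells and dotted lines at 2-fold. Filled circles lie right of the upper line at 38 regions and left of the lower line at 4, and open squares lie right of the upper line at 8.

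Among collagen regions, 8 of 12 were at least 2-fold higher when IL1B was added in Ad-GFP cells and 0 were lower, where all regions gave 48.9% and 6.07%, and the median difference was 3.25. That median stayed positive in the other scalings, at 1.09 or more, and the split was 7 higher and 4 lower in each. The shares of all regions were 37.0% and 32.1% on a common median, 25.5% and 26.9% after quantile normalization, and 30.3% and 43.7% on the step scale. The same comparison in Ad-IκBαΔN cells gave 3 regions, against 9.65% of all regions, and a median of 0.17, which was -0.36 on the step scale. Budesonide alone gave 4 higher and 3 lower in Ad-GFP cells, against 57.9% and 8.14% of all regions, and the median, 0.33, was -1.07 on a common median. Each collagen gene had 1 region.

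The collagen region with the largest difference lay in an intron of COL5A1 (chr9:134734116-134734515, 92.5 kb into the gene), which encodes a chain of the fibril-forming type V collagen. Its levels in untreated, budesonide and IL1B plus budesonide cells, the order used throughout, were 2.26, 2.70 and 7.39 in Ad-GFP cells and 2.92, 3.03 and 3.33 in Ad-IκBαΔN cells. A high level was present in 1 of the 6 groups, and the other 5 lay between 2.26 and 3.33. The difference on adding IL1B was 4.69 in Ad-GFP cells, 25.9-fold, and 0.29 in Ad-IκBαΔN cells. The 400 bp of this region hold a run of 60 bases that occurs at more than 1 place in them, which can be seen in part in the window above. The longest such run had a median of 9 bases over all regions, and 30 bases or more were reached at 2 of the 67 regions and at 1.98% of all regions.

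The promoter of COL7A1, the type VII collagen that anchors the basement membrane to the tissue below, held a region whose centre is 0.14 kb upstream of the gene start (chr3:48595273-48595672). Its levels were 2.58, 2.81 and 6.51 in Ad-GFP cells and 2.65, 3.43 and 4.12 in Ad-IκBαΔN cells. Again the Ad-GFP cells with IL1B plus budesonide stood highest, and the difference on adding IL1B was 3.70 there and 0.69 in Ad-IκBαΔN cells. COL4A1 encodes the main chain of basement membrane collagen, and the region linked to it lies in an intron of its neighbour COL4A2 (chr13:110371864-110372263). Levels there were 2.83, 1.66 and 5.57 in Ad-GFP cells and 3.23, 2.14 and 3.41 in Ad-IκBαΔN cells. Budesonide alone was below the untreated level in both viruses, with differences of -1.17 and -1.09.

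Upstream of COL8A1, a chain of the network-forming type VIII collagen, the region at chr3:99621006-99621405 had levels of 3.32, 1.41 and 5.43 in Ad-GFP cells and 2.98, 1.92 and 3.57 in Ad-IκBαΔN cells. It had the lowest difference of the set between budesonide and untreated Ad-GFP cells, -1.91, and it had the highest difference of the set on adding IL1B in Ad-IκBαΔN cells, 1.66. Under every scaling it was the only region of the set still 2-fold higher in that comparison. Measured from untreated Ad-IκBαΔN cells, IL1B plus budesonide was higher by 0.59, which is under 2-fold.

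An intron of COL15A1, a basement membrane collagen, gave 2.77, 2.40 and 5.53 in Ad-GFP cells and 2.84, 2.39 and 3.79 in Ad-IκBαΔN cells (chr9:98993555-98993954). Its window printed above holds 2 separate κB matches. An intron of COL11A2, a chain of the cartilage type XI collagen, gave 3.27, 1.69 and 5.12 in Ad-GFP cells and 2.70, 2.58 and 3.56 in Ad-IκBαΔN cells (chr6:33172578-33172977). The authors' class for the COL11A2 region is decreasing, yet in Ad-GFP cells it stood 3.43 higher with IL1B plus budesonide than with budesonide, the only region of that class in the set to be 2-fold higher. The region upstream of COL13A1, a transmembrane collagen, had levels of 2.91, 3.86 and 5.31 in Ad-GFP cells and 3.58, 4.18 and 4.23 in Ad-IκBαΔN cells (chr10:69769106-69769505), and its difference of 1.45 on adding IL1B in Ad-GFP cells was -0.06 on the step scale.

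An intron of COL28A1 gave 2.54, 4.92 and 4.44 in Ad-GFP cells and 2.96, 4.74 and 4.65 in Ad-IκBαΔN cells (chr7:7492506-7492905). A region in untranslated sequence of COL1A1, the main chain of fibrillar type I collagen, gave 3.22, 5.22 and 4.95 in Ad-GFP cells and 2.94, 5.18 and 4.86 in Ad-IκBαΔN cells (chr17:50184539-50184938). On the deposited scale, all 4 treated groups of both genes stood above both untreated groups. The level with IL1B was then within 2-fold of that with budesonide. Among the scalings the lowest difference on adding IL1B in Ad-GFP cells was -1.93 at COL28A1 and -1.76 at COL1A1. In Ad-IκBαΔN cells it was -0.65 and -0.88.

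Regions upstream of COL6A2 and COL6A3, chains of the beaded-filament type VI collagen, had the same order of levels. COL6A2 had levels of 2.26, 5.22 and 4.73 in Ad-GFP cells and 3.50, 5.42 and 5.34 in Ad-IκBαΔN cells (chr21:46085059-46085458). COL6A3 had levels of 2.64, 4.71 and 4.35 in Ad-GFP cells and 3.39, 4.50 and 4.27 in Ad-IκBαΔN cells (chr2:237432260-237432659). Both were at least 2-fold higher with budesonide in both viruses on the deposited scale, but in Ad-IκBαΔN cells the COL6A3 difference of 1.10 was -0.26 on a common median and the COL6A2 difference of 1.92 was -0.55 after quantile normalization. The COL6A2 region holds a repeated run of 102 bases, the longest in the set.

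Of the 15 laminin regions, 9 stood 2-fold or more above budesonide and 2 stood as far below it when IL1B was added in Ad-GFP cells, where all regions gave 48.9% and 6.07%. The median difference was 2.89, which was 1.02 or more in the other scalings. The split became 8 and 5 on a common median (37.0% and 32.1% of all regions). It was 8 and 4 after quantile normalization (25.5% and 26.9%), and 8 and 6 on the step scale (30.3% and 43.7%). In Ad-IκBαΔN cells 2 were higher, against 9.65% of all regions, and the median, 0.35, was -0.22 on the step scale. With budesonide alone, 7 were higher and 0 lower in Ad-GFP cells, against 57.9% and 8.14% of all regions, and the median, 0.31, was -1.10 on a common median. On that scale 3 were higher and 8 lower, against 24.3% and 32.6% of all regions.

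All 3 regions of LAMA3, the alpha chain of the laminin that anchors epithelial cells, were budesonide regions. Upstream of the gene (chr18:23684591-23684990) the levels were 2.40, 5.66 and 5.10 in Ad-GFP cells and 2.78, 5.53 and 5.38 in Ad-IκBαΔN cells. In the intron 36.6 kb into the gene (chr18:23725813-23726212) they were 2.93, 6.51 and 5.42 in Ad-GFP cells and 2.94, 6.13 and 6.45 in Ad-IκBαΔN cells. In the intron 52.8 kb in (chr18:23742022-23742421) they were 3.75, 5.85 and 4.58 in Ad-GFP cells and 3.10, 5.79 and 5.83 in Ad-IκBαΔN cells. Budesonide gave similar levels with either virus. On adding IL1B the intronic regions differed by -1.09 and -1.27 in Ad-GFP cells as deposited, and by 0.31 and 0.04 in Ad-IκBαΔN cells. The other scalings only lowered the Ad-GFP values, so they could not test these decreases. The budesonide difference of the region at 52.8 kb in Ad-GFP cells was 2.10 as deposited and -0.13 after quantile normalization.

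LAMB3, the beta chain of the same laminin, had 3 regions within 7.7 kb of its start, and the one in untranslated sequence 1.2 kb into the gene (chr1:209651016-209651415) had levels of 3.33, 2.91 and 5.80 in Ad-GFP cells and 3.54, 3.28 and 4.05 in Ad-IκBαΔN cells. The LAMB3 regions 3.2 and 7.7 kb upstream differed by 3.82 and 3.40 on adding IL1B in Ad-GFP cells and by 0.81 and 0.09 in Ad-IκBαΔN cells. None of the 3 was 2-fold higher with budesonide alone in either virus, and all 3 were at least 2-fold higher with IL1B added in Ad-GFP cells under every scaling.

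**Figure D3:**
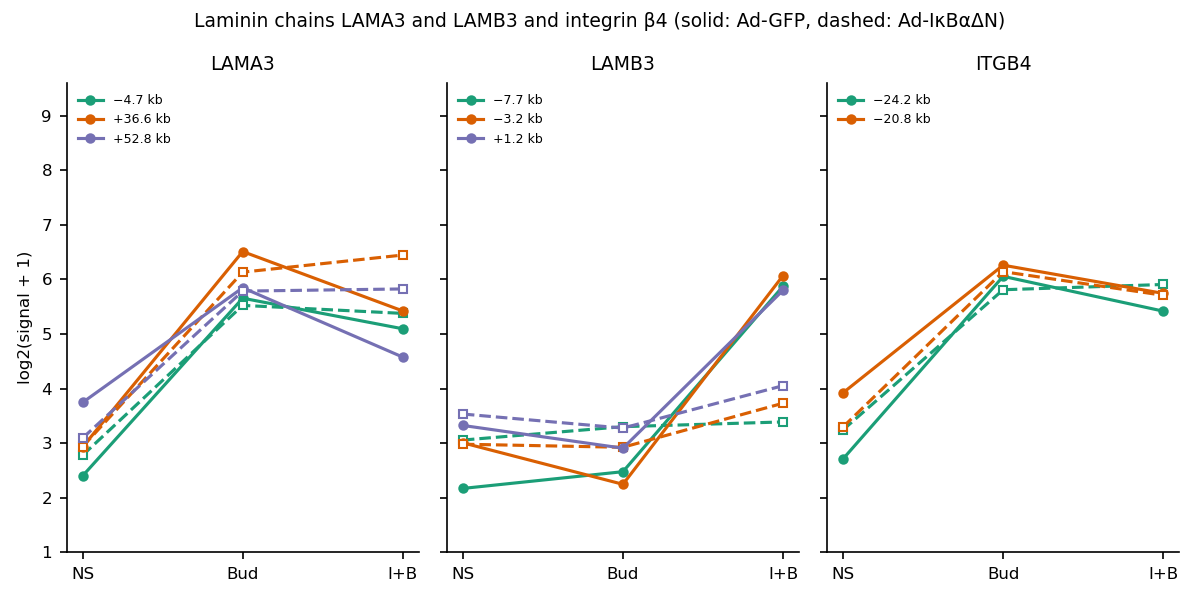
GR intensity on the log2(signal + 1) scale (y axis) in untreated, budesonide and IL1B plus budesonide cells (x axis) at the regions of LAMA3, LAMB3 and ITGB4, 1 line per region, solid for Ad-GFP and dashed for Ad-IκBαΔN cells. The solid lines peak at budesonide for LAMA3 and ITGB4 and at IL1B plus budesonide for LAMB3, where the dashed lines end between 3.39 and 4.05.

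LAMB1 and LAMC1 encode the common beta and gamma chains. An intron of LAMB1 (chr7:107972008-107972407) had levels of 2.13, 6.30 and 5.88 in Ad-GFP cells and 2.99, 6.05 and 6.02 in Ad-IκBαΔN cells. An intron of LAMC1 (chr1:183060405-183060804) had levels of 2.77, 5.05 and 4.91 in Ad-GFP cells and 3.22, 5.16 and 5.51 in Ad-IκBαΔN cells. Both were budesonide regions in both viruses, and the LAMB1 difference of 4.17 in Ad-GFP cells was the highest budesonide response of the set.

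LAMA5, the alpha chain of mature epithelial basement membranes, had 2 regions 1.67 kb apart. The one 6.0 kb into the gene (chr20:62361076-62361475) had levels of 3.82, 4.04 and 7.17 in Ad-GFP cells and 3.14, 4.06 and 4.41 in Ad-IκBαΔN cells. The one 7.7 kb in (chr20:62359407-62359806) had levels of 3.67, 4.82 and 5.85 in Ad-GFP cells and 3.33, 5.15 and 5.36 in Ad-IκBαΔN cells. The first was 8.76-fold higher with IL1B in Ad-GFP cells under the deposited scale and past 2-fold in every scaling, while the 1.03 of the second was -0.01 on a common median and -0.50 on the step scale. The second was 1 of the 4 regions past 2-fold at both steps in Ad-GFP cells as deposited, and so it is not a budesonide region.

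Gains of at least 2-fold on adding IL1B in Ad-GFP cells, in every scaling, were also seen at LAMA4 and LAMB4. The LAMA4 region (chr6:112298624-112299023), linked to a laminin chain of vessels and muscle, had levels of 1.83, 1.59 and 5.64 in Ad-GFP cells and 3.47, 2.15 and 3.50 in Ad-IκBαΔN cells. The LAMB4 region, in an intron of the neural adhesion gene NRCAM (chr7:108211484-108211883), had levels of 3.59, 3.84 and 7.20 in Ad-GFP cells and 3.48, 4.05 and 4.40 in Ad-IκBαΔN cells. At LAMA4 the untreated level itself was 1.64 higher in Ad-IκBαΔN cells, and budesonide differed from it by -1.32, so the 1.35 on adding IL1B in those cells ended 0.03 above untreated.

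By the authors' classes 10 of the 12 integrin alpha regions were increasing, against 40.5% of all regions. On adding IL1B in Ad-GFP cells 9 stood at least 2-fold higher and 1 stood lower, against 48.9% and 6.07% of all regions, and the median, 1.83, was 0.34 on the step scale. The split became 6 and 2 on a common median (37.0% and 32.1% of all regions). It was 5 and 2 after quantile normalization (25.5% and 26.9%), and 5 and 2 on the step scale (30.3% and 43.7%). In Ad-IκBαΔN cells 0 were higher and 0 lower, against 9.65% and 0.940%, and the median, 0.30, was -0.25 on the step scale. Budesonide alone gave 4 higher and 1 lower in Ad-GFP cells, against 57.9% and 8.14%, and the median, 0.79, was -0.62 on a common median and -0.99 after quantile normalization. In the direct comparison with IL1B plus budesonide, 7 were at least 2-fold lower in Ad-IκBαΔN cells and 0 higher, against 46.5% and 5.97%. In each other scaling it was 6 lower and 2 higher. The shares of all regions were 24.4% and 25.4% on a common median, 24.3% and 24.5% after quantile normalization, and 22.4% and 25.7% on the step scale.

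ITGAV encodes the αV subunit, which pairs with several beta subunits to bind fibronectin, vitronectin and latent TGF-β. The region 45.5 kb upstream (chr2:186544275-186544674) had levels of 3.75, 4.70 and 7.67 in Ad-GFP cells and 3.25, 4.80 and 5.03 in Ad-IκBαΔN cells. The region 14.7 kb upstream (chr2:186575127-186575526) had levels of 3.48, 4.22 and 5.42 in Ad-GFP cells and 3.03, 4.29 and 4.55 in Ad-IκBαΔN cells. The remaining ITGAV region, 17.1 kb upstream, differed by 3.43 on adding IL1B in Ad-GFP cells and by 0.33 in Ad-IκBαΔN cells. At the regions 45.5 and 17.1 kb upstream the gain in Ad-GFP cells passed 2-fold in every scaling, whereas the 1.21 at 14.7 kb was -0.31 on the step scale. The budesonide differences in Ad-IκBαΔN cells of 1.55 and 1.26 were both -0.11, the first after quantile normalization and the second on a common median.

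Introns of ITGAM, the αM subunit of the leukocyte integrin Mac-1, held the strongest gains of the family. The region 5.6 kb into the gene (chr16:31265353-31265752) had levels of 3.23, 2.79 and 7.23 in Ad-GFP cells and 3.78, 3.50 and 4.21 in Ad-IκBαΔN cells. The region 9.7 kb in (chr16:31269438-31269837) had levels of 3.45, 2.73 and 6.63 in Ad-GFP cells and 3.55, 3.58 and 4.02 in Ad-IκBαΔN cells. The differences on adding IL1B in Ad-GFP cells were 4.44 and 3.90, against 0.71 and 0.44 in Ad-IκBαΔN cells. Both introns of ITGB2, the beta partner of αM in leukocytes, differed in the same direction, by 3.64 and 2.64 in Ad-GFP cells. Whether these genes are transcribed in A549 cells was not measured here.

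ITGA5 encodes the fibronectin receptor subunit α5. Its region 2.0 kb upstream (chr12:54421115-54421514) had levels of 3.50, 4.76 and 5.67 in Ad-GFP cells and 2.91, 4.38 and 5.03 in Ad-IκBαΔN cells. The neighbouring region 4.0 kb upstream was at 2.53 with budesonide in Ad-GFP cells and differed by 3.44 on adding IL1B, past 2-fold in every scaling. In an intron of ITGA2, the collagen receptor subunit α2 (chr5:53031710-53032109), levels were 4.11, 5.30 and 6.63 in Ad-GFP cells and 3.52, 5.04 and 4.97 in Ad-IκBαΔN cells. The ITGA2 region was 1 of the 4 that were 2-fold higher both with budesonide and again with IL1B in Ad-GFP cells, but the first step was -0.21 on a common median and the second -0.23 on the step scale. The budesonide difference of 1.26 at ITGA5 in Ad-GFP cells was -0.15 on a common median.

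Budesonide regions in this family were few, and ITGA5 -2.0 kb, whose levels are given above, was among them. An intron of ITGA8 (chr10:15710418-15710817), a receptor subunit for nephronectin, had levels of 3.09, 4.73 and 4.49 in Ad-GFP cells and 2.99, 4.75 and 4.60 in Ad-IκBαΔN cells. The region linked to ITGA2B, the platelet integrin subunit, lies in an intron of GPATCH8 (chr17:44438664-44439063) and had levels of 3.52, 5.82 and 4.78 in Ad-GFP cells and 3.39, 5.69 and 5.78 in Ad-IκBαΔN cells. The ITGA2B difference on adding IL1B was -1.05 in Ad-GFP cells as deposited, while the difference in Ad-IκBαΔN cells was 0.09. The other scalings only lowered the Ad-GFP value, so they could not test this decrease. The single regions of ITGA6 and ITGA9, subunits that bind laminin and tenascin, differed by 1.38 and 2.27 on adding IL1B in Ad-GFP cells. After quantile normalization these were -0.39 and 0.37, both under 2-fold.

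Integrin beta genes held 25 regions, and 4 genes had 4 or more. With budesonide alone 14 were at least 2-fold higher and 4 lower in Ad-GFP cells, against 57.9% and 8.14% of all regions, and the median, 1.25, was -0.15 on a common median. On that scale 8 were higher and 10 lower, against 24.3% and 32.6% of all regions. On adding IL1B 12 were higher and 1 lower in Ad-GFP cells as deposited, against 48.9% and 6.07%. The median, 0.81, was -0.23 on a common median, 0.12 after quantile normalization and -0.76 on the step scale. The split became 11 and 6 on a common median (37.0% and 32.1% of all regions). It was 8 and 7 after quantile normalization (25.5% and 26.9%), and 10 and 11 on the step scale (30.3% and 43.7%). In Ad-IκBαΔN cells 4 were higher and 0 lower, against 9.65% and 0.940%, and the median, 0.23, was -0.33 on the step scale.

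ITGB6 encodes the β6 subunit of the epithelial integrin αVβ6, which activates TGF-β, and 5 of its 6 regions were at least 2-fold higher with IL1B added in Ad-GFP cells, in every scaling. The region 9.4 kb upstream (chr2:160209552-160209951) had levels of 3.57, 2.39 and 8.09 in Ad-GFP cells and 3.12, 3.41 and 3.87 in Ad-IκBαΔN cells. Its 5.70 on adding IL1B in Ad-GFP cells, 52.1-fold, was the largest difference of the set, against 0.46 in Ad-IκBαΔN cells. The region 33.0 kb upstream (chr2:160233075-160233474) had levels of 3.20, 2.07 and 6.88 in Ad-GFP cells and 3.08, 2.93 and 3.91 in Ad-IκBαΔN cells. Both were at least 2-fold lower with budesonide than in untreated Ad-GFP cells as deposited, by -1.19 and -1.14. The other scalings lowered these values or left them, so they could not test this decrease. In Ad-IκBαΔN cells the differences were 0.29 and -0.15 as deposited, but -1.07 and -1.51 on a common median, past 2-fold as well. With 5 in place of 1 added to the signal, only 1 region of the whole set was at least 2-fold lower with budesonide in Ad-GFP cells. Between the regions at 9.4 and 33.0 kb, the region 28.5 kb upstream (chr2:160228617-160229016) had levels of 3.23, 6.71 and 7.51 in Ad-GFP cells and 2.77, 6.60 and 6.81 in Ad-IκBαΔN cells. That region was a budesonide region in both viruses, 4.46 kb from the one at 33.0 kb, and it differed by less than 2-fold on adding IL1B. At the other 3 ITGB6 regions the differences on adding IL1B were 3.57, 3.89 and 3.00 in Ad-GFP cells and 0.87, 1.06 and 1.05 in Ad-IκBαΔN cells.

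ITGB8 encodes the β8 subunit, which also pairs with αV and binds latent TGF-β. In an annotated exon outside the coding sequence, 22.4 kb into the gene (chr7:20352949-20353348) levels were 3.64, 4.81 and 7.38 in Ad-GFP cells and 3.59, 5.08 and 4.96 in Ad-IκBαΔN cells. In the intron 10.4 kb in (chr7:20340868-20341267) they were 3.07, 4.46 and 4.30 in Ad-GFP cells and 2.93, 4.45 and 3.47 in Ad-IκBαΔN cells. The first was 2-fold higher with IL1B in Ad-GFP cells in every scaling, and its budesonide difference of 1.17 was -0.24 on a common median. The second held the best GRE match of the set and a budesonide difference of 1.39 that was -0.01 on a common median, and it had the lowest difference of the set on adding IL1B in Ad-IκBαΔN cells, -0.98. Beside the gene start, the region 1.1 kb upstream differed by 3.77 on adding IL1B in Ad-GFP cells and by 0.35 in Ad-IκBαΔN cells.

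ITGB1 encodes the β1 subunit shared by most matrix receptors. The intron 52.4 kb into the gene (chr10:32953193-32953592) had levels of 3.13, 6.95 and 5.18 in Ad-GFP cells and 2.83, 6.74 and 6.74 in Ad-IκBαΔN cells. It was 14.1-fold higher with budesonide in Ad-GFP cells as deposited, a difference of 3.81 that was 1.64 after quantile normalization. Its difference on adding IL1B in Ad-GFP cells, -1.77, was the lowest of the set, while the Ad-IκBαΔN level was 6.74 with and without IL1B. At the gene start (chr10:33005609-33006008) levels were 2.48, 5.26 and 6.32 in Ad-GFP cells and 3.21, 5.50 and 4.89 in Ad-IκBαΔN cells. The region 4.5 kb upstream (chr10:33010123-33010522) had levels of 3.31, 5.87 and 6.07 in Ad-GFP cells and 2.91, 5.92 and 5.68 in Ad-IκBαΔN cells. At the gene start the difference of 1.05 on adding IL1B in Ad-GFP cells was -0.50 on the step scale, and the Ad-IκBαΔN difference was -0.61. Of the remaining 3 ITGB1 regions, the one 37.0 kb upstream differed by 2.58 on adding IL1B in Ad-GFP cells and those 5.4 and 73.2 kb into the gene by -0.35 and 0.04.

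ITGB5, another partner of αV and a vitronectin receptor, had 5 intronic regions, all at least 2-fold higher with budesonide in both viruses on the deposited scale. The strongest, 63.5 kb into the gene (chr3:124837718-124838117), had levels of 3.72, 7.19 and 7.27 in Ad-GFP cells and 3.01, 6.94 and 6.21 in Ad-IκBαΔN cells. The one 22.5 kb in (chr3:124878685-124879084) had levels of 3.09, 5.84 and 5.93 in Ad-GFP cells and 3.38, 5.66 and 5.80 in Ad-IκBαΔN cells. As deposited, neither differed by 2-fold on adding IL1B in either virus. On the step scale the differences in Ad-GFP cells were -1.48 at 63.5 kb and -1.46 at 22.5 kb. In Ad-IκBαΔN cells they were -1.30 and -0.43 on that scale. The weakest, 68.7 kb in (chr3:124832553-124832952), had levels of 2.50, 3.75 and 4.29 in Ad-GFP cells and 3.09, 4.14 and 5.51 in Ad-IκBαΔN cells. It was the only region of the set 2-fold higher with IL1B in Ad-IκBαΔN but not in Ad-GFP cells, by 1.37 against 0.54, although its budesonide differences of 1.25 and 1.05 were -0.15 and -0.31 on a common median. Its neighbour 1.46 kb away differed by -0.42 on adding IL1B in Ad-IκBαΔN cells.

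ITGB4, the β4 subunit of the laminin receptor in hemidesmosomes, was linked to 2 regions in introns of SAP30BP. The region 24.2 kb upstream (chr17:75696962-75697361) had levels of 2.71, 6.06 and 5.42 in Ad-GFP cells and 3.25, 5.81 and 5.91 in Ad-IκBαΔN cells. The region 20.8 kb upstream (chr17:75700320-75700719) had levels of 3.92, 6.26 and 5.75 in Ad-GFP cells and 3.30, 6.14 and 5.71 in Ad-IκBαΔN cells. On the deposited scale all treated groups were above the untreated ones, and neither region differed by 2-fold on adding IL1B, as at LAMA3 -4.7 kb. Among the scalings the lowest difference on adding IL1B in Ad-GFP cells was -2.16 at 24.2 kb and -2.05 at 20.8 kb. At LAMA3 -4.7 kb it was -2.06. On the step scale the region at 20.8 kb was also at least 2-fold lower in Ad-IκBαΔN cells. The Ad-GFP budesonide difference at 20.8 kb was 2.34 as deposited and -0.22 after quantile normalization.

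**Figure D4:**
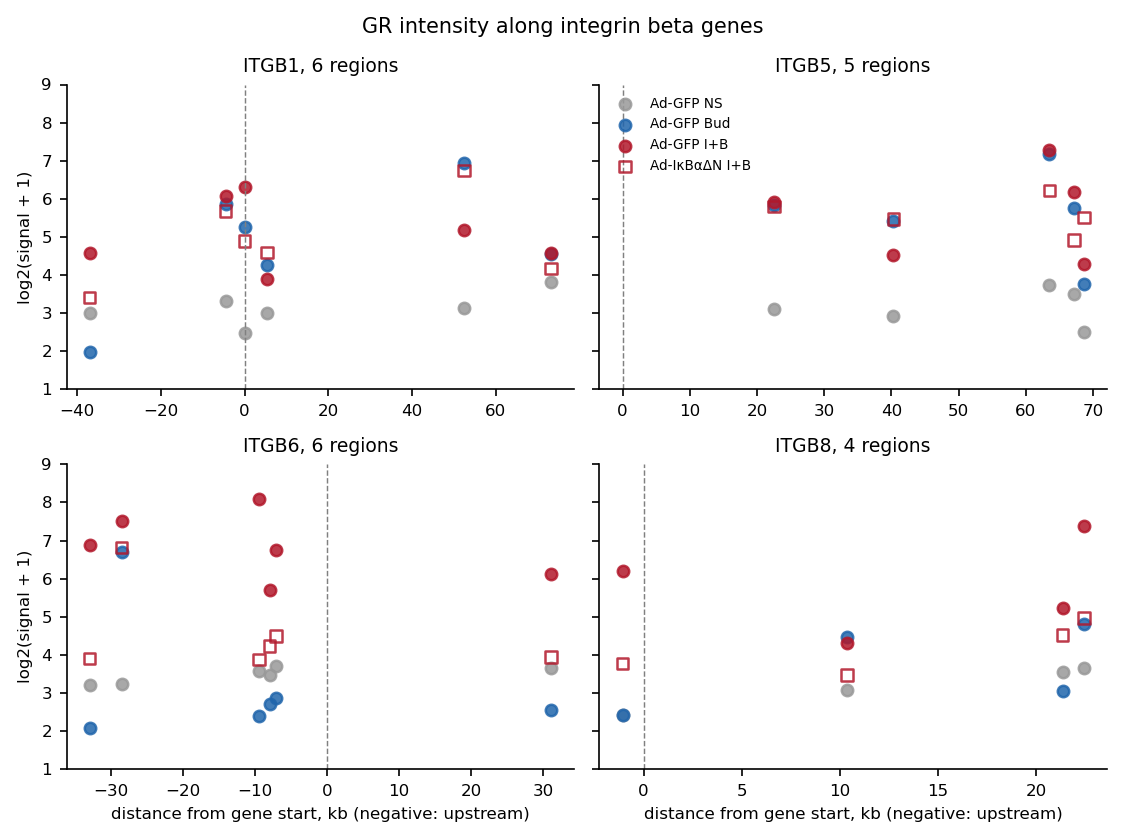
GR intensity on the log2(signal + 1) scale (y axis) against distance from the gene start in kb (x axis, negative upstream) for ITGB1, ITGB5, ITGB6 and ITGB8, with filled circles for untreated, budesonide and IL1B plus budesonide Ad-GFP cells and open squares for IL1B plus budesonide Ad-IκBαΔN cells. At 5 of 6 ITGB6 regions the red circle lies far above the blue one. At ITGB6 -28.5 kb and along ITGB5 the blue circle is already high, except at ITGB5 +68.7 kb, where it is at 3.75.

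Genes that share the prefix only held 3 regions. Both ITGB3BP regions lie upstream of that gene, which encodes a centromere protein that also binds the β3 integrin tail. The one 69.8 kb away (chr1:63663349-63663748) had levels of 3.02, 1.47 and 5.29 in Ad-GFP cells and 2.89, 2.79 and 3.04 in Ad-IκBαΔN cells. The one 81.0 kb away (chr1:63674503-63674902) had levels of 2.87, 5.32 and 4.38 in Ad-GFP cells and 3.15, 5.07 and 5.40 in Ad-IκBαΔN cells. The nearer was higher with IL1B by 3.82 in Ad-GFP cells and the farther was a budesonide region. The region upstream of ITGBL1, a secreted protein with integrin-like repeats (chr13:101450402-101450801), had levels of 2.69, 3.53 and 5.88 in Ad-GFP cells and 3.15, 3.70 and 3.42 in Ad-IκBαΔN cells.

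Motif matches were counted in the 400 bp of every region. A κB match was found in 22 of the 67 regions (32.8%, against 21.3% of all regions), an AP-1 match in 23 (34.3%, against 22.8%) and a GRE match in 6 (8.96%, against 14.7%). In windows of the same width 5 kb away from all regions the shares were 3.90%, 6.98% and 2.63%. Both strands were searched, a region counts once however many matches overlap in it, and 26 regions (38.8%, against 49.2%) had none of the 3. A match describes the letters only, and factor binding at these motifs was not analysed here.

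On the deposited scale, all 22 regions of the set with a κB match were at least 2-fold higher with IL1B plus budesonide than with budesonide in Ad-GFP cells. Of all κB-matched regions 92.5% were. With budesonide alone 0 of the 22 were 2-fold higher, where 17.0% of all κB-matched regions were. Among the scalings the lowest difference on adding IL1B was under 2-fold at COL13A1 -32.6 kb (-0.06), ITGA6 +14.8 kb (-0.39), ITGA9 -20.8 kb (0.37), ITGB1 -37.0 kb (0.37) and ITGB2 +4.0 kb (0.92). Of the 40 regions gained with IL1B, 22 (55.0%) held a κB match, against 40.3% of all gained regions, and 16 (40.0%) an AP-1 match, against 25.0%. By the authors' classes the κB match was in 20 of 33 increasing regions (60.6%, against 40.3%). It was in 1 of 17 unchanged regions (5.88%, against 11.8%) and in 1 of 17 decreasing regions (5.88%, against 4.49%). The κB match of ITGB6 -33.0 kb lay 11 bp from the centre of the region, as printed above.

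GRE matches were in ITGA2 +42.6 kb, ITGA2B -49.2 kb, ITGB6 +31.1 kb, ITGB8 +10.4 kb, LAMA3 +36.6 kb and LAMB1 +31.0 kb. Of these 6, 5 were at least 2-fold higher with budesonide alone in Ad-GFP cells as deposited (83.3%, against 80.6% of all GRE-matched regions). The exception was ITGB6 +31.1 kb, which also held a κB match. The ITGB8 match had 1 mismatch and lay at the centre of its region, and the other 5 had 2. The strong budesonide regions ITGB1 +52.4 kb and ITGB5 +63.5 kb held no match to any of the 3 motifs.

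**Figure D5:**
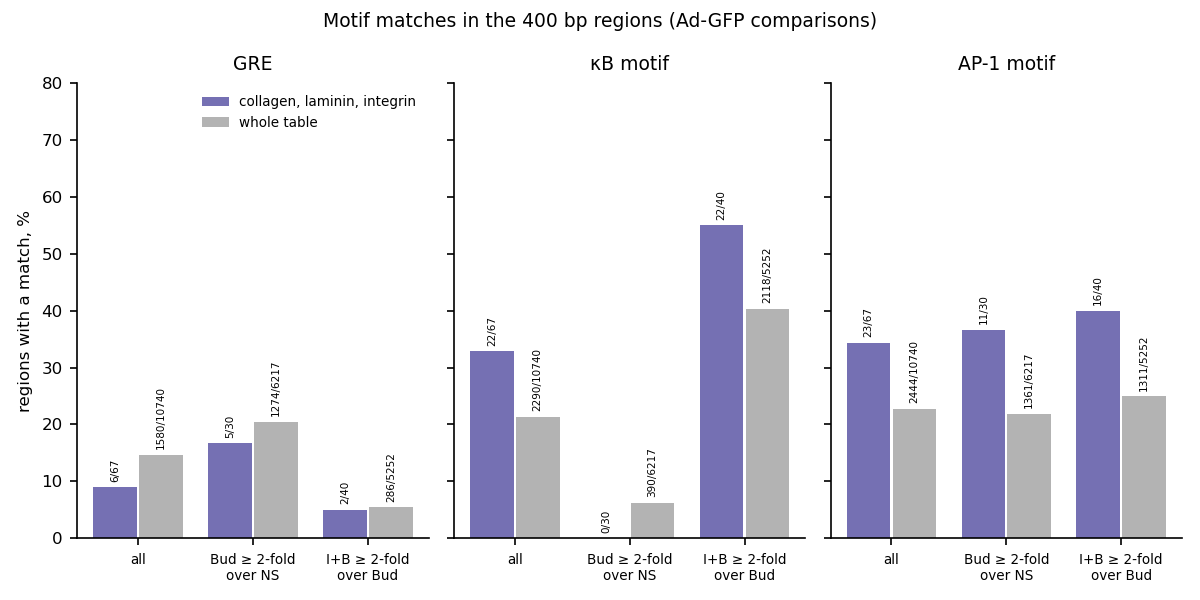
Share of regions with a GRE, κB or AP-1 match in their 400 bp (y axis, percent) for all regions, regions at least 2-fold higher with budesonide and regions at least 2-fold higher with IL1B added in Ad-GFP cells (x axis), with purple bars for the collagen, laminin and integrin set and grey bars for the whole table, and counts above the bars. The κB bar of the set is 0.0% for budesonide regions and 55.0% for IL1B-gained regions.

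The membership rule itself asks for a gene start within 100 kb, which 7574 regions of the table have, and positions are set against those. Of the 67 regions, 23 (34.3%) lay within 10 kb of a start, against 23.7% of the 7574, and the median distance was 20.8 kb against 28.0 kb. Within 1 kb there were 2 (2.99%, against 5.33%), at COL7A1 and ITGB1. Introns held 35 regions (52.2%, against 47.8% of all 10740), and intergenic sequence held 27 (40.3%, against 48.0%). The linked gene itself contained 32 regions, and 8 lay inside another protein-coding gene only. Since the nearest start was taken as the link, whether a region acts on that gene was not tested.

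Regions of 1 gene are not replicates of each other. The closest pairs were ITGB6 -7.1 and -8.0 kb, 0.879 kb apart, and ITGB8 +21.4 and +22.4 kb, 1.08 kb apart. At the edge of the 100 kb rule, the last members inside were ITGB3BP -81.0 kb, LAMB4 -81.3 kb and COL5A1 +92.5 kb, whose levels are given above. Just outside lay a region 104.8 kb from ITGB8 with 1.99 for budesonide and 5.94 for IL1B plus budesonide in Ad-GFP cells, one 105.0 kb from LAMB4 with 7.42 and 6.75, and one 105.1 kb from COL4A1 with 2.94 and 5.97.

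Other matrix and adhesion genes, grouped in 3 lists, give the surroundings of the set, and the shares of all regions to read them against are 57.9% higher and 8.14% lower with budesonide and 48.9% and 6.07% on adding IL1B in Ad-GFP cells. Of 43 genes for other basement membrane and interstitial matrix proteins, 19 had 28 regions. Budesonide alone gave 17 higher and 1 lower in Ad-GFP cells (60.7% and 3.57%), with a median of 1.58, and adding IL1B gave 13 higher and 1 lower (46.4% and 3.57%), with a median of 0.90. The strongest were upstream of ELN, which encodes elastin, at 3.20, 7.69 and 6.73 in Ad-GFP cells and 3.23, 7.49 and 6.19 in Ad-IκBαΔN cells, in the gene CROCC near MFAP2, a microfibril protein, at 4.31, 5.06 and 6.36 in Ad-GFP cells and 3.64, 5.08 and 6.08 in Ad-IκBαΔN cells, and upstream of NID2, a linker of laminin and type IV collagen, at 3.21, 5.39 and 5.83 in Ad-GFP cells and 3.23, 5.31 and 6.34 in Ad-IκBαΔN cells. In Ad-IκBαΔN cells 3 of the 28 were higher and 1 was lower on adding IL1B, against 9.65% and 0.940% of all regions.

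Of 36 genes for matrix synthesis, crosslinking and turnover, 10 had 14 regions, with 7 higher and 3 lower for budesonide and 9 higher and 1 lower on adding IL1B in Ad-GFP cells. The strongest were all in P4HA3, a collagen prolyl hydroxylase. At 42.4 kb into the gene levels were 3.70, 6.08 and 7.47 in Ad-GFP cells and 3.18, 5.92 and 5.43 in Ad-IκBαΔN cells. At 32.8 kb they were 2.29, 6.55 and 7.44 in Ad-GFP cells and 3.11, 6.23 and 5.79 in Ad-IκBαΔN cells, and at 43.1 kb they were 3.62, 6.33 and 5.66 in Ad-GFP cells and 2.67, 6.03 and 5.96 in Ad-IκBαΔN cells. All 3 P4HA3 regions were already high with budesonide, and 0 of the 14 regions were 2-fold higher on adding IL1B in Ad-IκBαΔN cells.

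Of 45 genes for adhesion site proteins and other matrix receptors, 23 had 53 regions, with 28 higher and 4 lower for budesonide (52.8% and 7.55%) and 26 higher and 6 lower on adding IL1B (49.1% and 11.3%) in Ad-GFP cells. The strongest was in VCL, which encodes vinculin, at 3.24, 8.52 and 6.66 in Ad-GFP cells and 3.07, 8.28 and 8.38 in Ad-IκBαΔN cells. Upstream of PTK2, the focal adhesion kinase, levels were 3.17, 7.59 and 7.01 in Ad-GFP cells and 3.54, 7.42 and 7.81 in Ad-IκBαΔN cells, and in ACTN4, an actin crosslinker, they were 4.25, 6.12 and 6.83 in Ad-GFP cells and 3.30, 6.11 and 6.02 in Ad-IκBαΔN cells. At VCL the difference on adding IL1B was -1.86 in Ad-GFP cells, against -1.77 at ITGB1 +52.4 kb, and the Ad-IκBαΔN difference was 0.10.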

How the data were processed

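GR binding was read from 1 deposited table of 10740 regions and 6 groups. Per the submitters' processing notes, the build was GRCh38/hg38, the aligner Bowtie2 2.4.4 and the peak tool MACS2 2.2.7.1; DiffBind 3.2, SAMtools, FastQC 0.10.1 and bcl2fastq are named too. Per the file headers, the authors deposited a GR binding intensity and a trend class per region, and the log2(signal + 1) form was read from the numbers. The tool behind the values, their scaling, the pooling of each group's 2 libraries and the meaning of the classes are not given in the sources used here. Sequencing depth per library is unknown. The 12 RELA libraries and 2 input libraries were not analysed here.

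Regions were linked to the nearest protein-coding gene start in GENCODE 44. Differences were taken between the deposited log2 values and counted at 2-fold. The planned tests over libraries could not be made, as the table holds 1 value per group. Member genes, lists and tests were chosen with earlier results of these data known. Values in all 6 groups are given for the 8 regions with the highest mean in each family, for the 3 highest and 3 lowest regions in each of 5 comparisons, and for the lead region of each gene with 3 or more regions. From each of the 3 other gene lists the 3 regions with the highest mean are given. Other regions named were picked after their values were seen. The results of 1 gene are not reported here; its 2 regions stay in the counts over the set and are left out where regions are drawn by name. Motifs were searched on both strands of the 400 bp of hg38. Alternatives were 3 scalings between groups, a pseudocount of 5, a filter on low values and a 50 kb link. Counting was tested on simulated data. Python 3.11.15, numpy 2.4.6 and pandas 2.3.3 were used.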

Additional observations from a re-analysis of the deposited data

Results flagged for a closer look

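The difference between IL1B plus budesonide and budesonide had opposite signs in the cells of the 2 viruses at 19 of the 67 regions (28.4%, against 30.8% of all regions), and at 9 of these (13.4%, against 10.4%) it reached 2-fold in 1 virus. The 5 given here also had a difference of at least 0.25 on the log2 scale in each virus. Each direction rests on 1 value per group, and the difference between the viruses was not tested. At COL6A6 +79.5 kb the difference was 3.37 with Ad-GFP and -0.30 with Ad-IκBαΔN. ITGA9 -20.8 kb had 2.27 and -0.45, and ITGBL1 -2.0 kb had 2.36 and -0.28. At ITGB1 -0.02 kb, the gene start, the values were 1.05 and -0.61. LAMA3 +36.6 kb went the other way, with -1.09 with Ad-GFP and 0.31 with Ad-IκBαΔN. The 5 Ad-IκBαΔN differences were under 2-fold as deposited. Among the scalings the lowest was -1.05 at COL6A6 +79.5 kb, -1.02 at ITGA9 -20.8 kb and -1.17 at ITGB1 -0.02 kb. COL6A6 levels were low, at 1.45 with budesonide in Ad-GFP cells and 2.19 with IL1B plus budesonide in Ad-IκBαΔN cells. On the step scale the signs no longer opposed at ITGB1 -0.02 kb, where the Ad-GFP value was -0.50, and at LAMA3 +36.6 kb, where the Ad-IκBαΔN value was -0.26. In the other scalings of the report, and at the other 3 regions in every scaling, the signs stayed opposed.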

How the results depend on the processing

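No paired analysis was possible because the table holds 1 value per region and group, with no column per library; leaving out each replicate was not run for the same reason. Of 60 values of the set as a whole under 6 alternatives, 36 kept their direction and size, 19 moved and 5 turned sign. Values of budesonide against untreated could not change on the step scale, as no step other than 1 was found for those groups.

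The cause was not tested for any of the changes below. Median differences that turned sign were budesonide against untreated, at -0.57 and -0.16 with Ad-GFP and at -0.44 and -0.33 with Ad-IκBαΔN (common median, quantile normalization), and added IL1B in Ad-IκBαΔN cells at -0.26 (step scale). The counts of regions higher with budesonide were 13 and 9 with Ad-GFP and 10 and 11 with Ad-IκBαΔN under the first 2 scalings. For added IL1B in Ad-GFP cells the median was 1.15 (common median), 0.37 (quantile), 0.68 (step scale) and 0.54 (low filter, 49 regions left), and the count was 22 with the low filter. Over all regions that passed the filter the median was 0.31, and 34.7% were higher. In Ad-IκBαΔN cells that count was 2 (quantile), 1 (step scale), 2 (pseudocount 5) and 5 (low filter). The matching shares of all regions were 0.885%, 0.875%, 2.57% and 5.29%. Ad-IκBαΔN against Ad-GFP with IL1B plus budesonide had medians of -0.50, -0.43, -0.44 and -0.72 (common median, quantile, step scale, low filter), with 21 regions lower under the filter. Over all regions under the filter that median was -0.44, and 34.2% were lower. The budesonide median in Ad-IκBαΔN cells was 1.53 with the filter, against 1.70 over all regions. The 50 kb link left 54 regions.

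Single regions also turned sign, given first for differences of at least 2-fold as deposited at regions the naming rule picks. On a common median these were, for budesonide in Ad-GFP cells, ITGA2 (-0.21), ITGA5 -2.0 kb (-0.15), ITGB5 +68.7 kb (-0.15), ITGB8 +10.4 kb (-0.0135), ITGB8 +22.4 kb (-0.24) and LAMA5 +7.7 kb (-0.26), in Ad-IκBαΔN cells COL6A3 (-0.26), ITGAV -14.7 kb (-0.11) and ITGB5 +68.7 kb (-0.31), and for added IL1B in Ad-GFP cells LAMA5 +7.7 kb (-0.0056). After quantile normalization these were, for budesonide in Ad-GFP cells, ITGA2 (-1.29), ITGA5 -2.0 kb (-0.45), ITGB4 -20.8 kb (-0.22), ITGB8 +22.4 kb (-0.65), LAMA3 +52.8 kb (-0.13) and LAMA5 +7.7 kb (-0.70), and in Ad-IκBαΔN cells COL6A2 (-0.55), COL6A3 (-0.85), ITGA2 (-0.89), ITGAV -45.5 kb (-0.11), ITGB5 +68.7 kb (-0.11), ITGB8 +22.4 kb (-1.14) and LAMA5 +7.7 kb (-0.10). On the step scale these were, for added IL1B in Ad-GFP cells, COL13A1 (-0.0621), ITGA2 (-0.23), ITGAV -14.7 kb (-0.31), ITGB1 -0.02 kb (-0.50) and LAMA5 +7.7 kb (-0.50). Values outside that rule or under 2-fold as deposited also turned and are not all listed: after quantile normalization the added IL1B difference in Ad-GFP cells was -0.39 at ITGA6 +14.8 kb and -0.92 at ITGB5 +68.7 kb.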
